A study of Homo sapiens with 5 samples.

Results

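The enzymes described here are 7 genes of the pentose phosphate pathway: H6PD, PGLS and PGD of the oxidative branch, and RPIA, RPE, TKT and TALDO1 of the non-oxidative branch. They were chosen by name from a list of pathway enzymes that does not cover every step of the pathway. The rule used names and no measured change, but it was set with earlier results of these data known. All 7 were among the 11976 genes of the authors' deposited table. In that table, and under a sign that had to be assumed, TALDO1 was higher and H6PD was lower in libraries labelled ERF knockout. The remaining 5 enzymes were not past the threshold (adjusted p below 0.05, edgeR's quasi-likelihood test with Benjamini-Hochberg adjustment).

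The pentose phosphate pathway branches from glycolysis at a hexose phosphate. Its oxidative branch converts this sugar to a pentose phosphate and carbon dioxide and reduces NADP to NADPH, and its non-oxidative branch exchanges carbon units between sugar phosphates, so that pentoses can return to glycolysis or be made from it. Red cells rely on this pathway for NADPH, which keeps glutathione reduced and protects hemoglobin and the membrane from oxidants, while dividing precursors also draw on it for the ribose of nucleotides.

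Total RNA was sequenced from 5 samples of HUDEP-2, a line of immortalised erythroid progenitors that came from cord blood. The labels give 3 samples the genotype ERF knockout and 2 the genotype wild type, and the wild-type titles carry the unexplained letters SCR. ERF is an ETS-domain transcriptional repressor, and the series asks what its loss does to γ-globin. How the knockout was made, whether it is 1 clone and whether samples of a group are separate cultures is not stated, so the p-values reflect the scatter of these samples alone, and that scatter may be technical. The table's name contains Pre, a term the labels leave unexplained, and at what stage of culture the cells were taken is therefore unknown.

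The table gave 1 comparison of both genotypes and 0 columns of values per library. For this reason no per-library level, SD or library depth is given, and the change of a gene is described by its log2 fold change, a standard error (SE) derived from that change and the F statistic, and a 95% interval. Markers of the line fit its label in that 13 of 13 erythroid genes were measured, from 6.90 to 12.48 log2 CPM (CPM are read counts scaled to a common library total). Under the sign assumed in the next paragraph, 10 of these genes rose and 0 fell in libraries labelled knockout. Over all genes, 24.9% were called higher and 25.9% lower. Among markers of other blood cells, 1 of 8 granulocyte and monocyte genes, 1 of 6 megakaryocyte genes, 2 of 5 mast cell genes and 0 of 6 lymphocyte genes were in the table. LYZ, of monocytes, was scarce at 0.48 log2 CPM. ITGA2B (7.26), from the megakaryocyte list, and TPSAB1 (9.18) and KIT (8.80), from the mast cell list, were abundant. Whether these genes are confined to the cell types of their lists was not tested. Under the same sign the 2 measured genes of the mast cell list parted, with TPSAB1 at a log2 fold change of 0.61 (edgeR adjusted p = 0.000241) and KIT at -0.41 (edgeR adjusted p = 6.11e-05) in the authors' deposited table. ITGA2B and LYZ did not pass. The part of these genes and of the erythroid shift in the enzyme values was not tested, and in bulk RNA fewer cells of a type and less RNA per cell cannot be told apart.

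The sign of every change given here, above and below, rests on an assumption. The header names no reference group, so the direction was fixed by placing the γ-globin gene HBG2 above wild type in the knockout, as the series title states, and the deposited values were multiplied by -1. Under this sign HBG2 had a log2 fold change of 1.88 with an SE of 0.22 in the authors' deposited table, which is no finding; reads shared with its near-identical copy HBG1 make this value uncertain. ERF RNA itself then stood at 0.89 with an SE of 0.07 in the authors' deposited table, higher in the libraries labelled knockout and so against that label. If the sign is read the other way, every direction is exchanged: H6PD is then higher and TALDO1 lower in the libraries labelled knockout, and the sizes, errors and p-values stay as given.

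Of the 7 enzymes, 1 was higher, 1 was lower and 5 did not pass the threshold set on the authors' deposited table. Over all genes of that table, 50.9% passed the threshold in either direction, 24.9% as higher and 25.9% as lower. Changes of the enzymes were mostly small: their median absolute log2 fold change was 0.07, against 0.21 over all genes. The signed median was -0.05 for the enzymes and -0.00186 for all genes. By branch, the oxidative enzymes counted 0 higher and 1 lower of 3, and the non-oxidative enzymes 1 higher and 0 lower of 4. With so few genes in each, these counts do not set the branches apart.

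**Figure D1:**
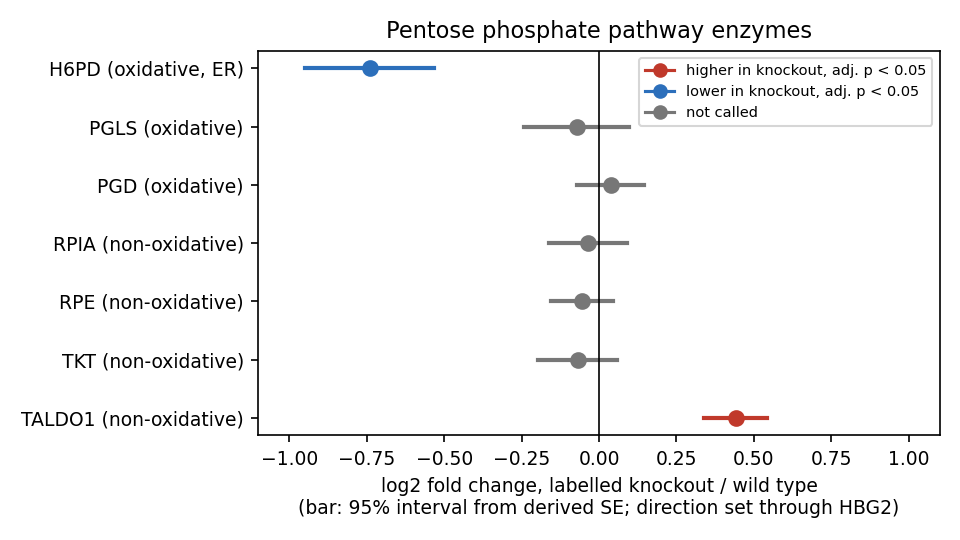
Log2 fold change of each enzyme between libraries labelled ERF knockout and wild type (x axis), with points for the value and bars for the 95% interval. The interval of H6PD runs from -0.95 to -0.53 and that of TALDO1 from 0.34 to 0.54, whereas the other 5 intervals all span 0.

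The sequences before the start sites of H6PD, TALDO1 and RPE are shown because H6PD and TALDO1 are the called enzymes, and because RPE alone among the 7 held the ETS motif searched for. Each is the 250 bases before the start site on the gene's strand, from RefSeq in build GRCh38.p14, which is not the hg19/GRCh37 build of the authors. All 7 enzymes matched that promoter table, and only the first listed start site of each was used. Matches and base composition before any other start site of these genes were not examined. Capitals mark matches, on either strand, to CCGGAAG (bound by ETS factors), TGACNNNGC (the core of the antioxidant response element), GATA, CACCC (bound by KLF factors) or CACGTG (the E-box).
H6PD, chr1:9239597-9239846, plus strand: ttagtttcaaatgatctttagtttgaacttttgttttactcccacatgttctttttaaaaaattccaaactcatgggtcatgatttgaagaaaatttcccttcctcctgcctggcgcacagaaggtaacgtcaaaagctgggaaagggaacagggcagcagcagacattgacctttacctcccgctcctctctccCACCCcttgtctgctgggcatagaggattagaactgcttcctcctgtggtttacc
TALDO1, chr11:747214-747463, plus strand: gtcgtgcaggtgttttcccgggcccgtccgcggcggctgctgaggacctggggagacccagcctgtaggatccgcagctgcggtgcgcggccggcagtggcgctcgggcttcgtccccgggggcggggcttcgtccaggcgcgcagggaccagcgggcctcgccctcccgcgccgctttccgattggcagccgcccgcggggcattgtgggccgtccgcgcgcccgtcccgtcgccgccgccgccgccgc
RPE, chr2:210002388-210002637, plus strand: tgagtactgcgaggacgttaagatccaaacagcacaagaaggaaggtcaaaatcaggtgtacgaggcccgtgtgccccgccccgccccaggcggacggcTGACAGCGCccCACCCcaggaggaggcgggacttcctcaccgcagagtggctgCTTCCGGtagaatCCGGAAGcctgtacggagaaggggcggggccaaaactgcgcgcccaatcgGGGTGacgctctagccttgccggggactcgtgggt

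The stretch before H6PD held a single CACCC match, 55 bases before the start, and that before TALDO1 held no match to any of the 5 motifs. RPE had 2 ETS matches on opposite strands, 98 and 85 bases before its start, together with an antioxidant response element core and 2 CACCC matches. Across the enzymes, CCGGAAG was present in 1 of 7 stretches, TGACNNNGC in 2, GATA in 2, CACCC in 5 and CACGTG in 0. Among 35114 RefSeq stretches of the same length, the shares with a match were 8.52% for CCGGAAG, 10.9% for TGACNNNGC, 45.6% for GATA, 54.7% for CACCC and 6.35% for CACGTG. A match is a description of letters and not a binding site. Before the start sites used, the called enzymes also lay at opposite ends in base composition. H6PD had 44.8% G and C and 3 CG pairs, the lowest of the 7 on both measures. TALDO1 had 78.4% and 40 CG pairs, the highest on both. This contrast holds for those start sites alone. The medians over all stretches were 58% and 11 CG pairs. Among all stretches, 1.73% held more CG pairs than that of TALDO1, and 70.7% held more than that of H6PD.

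H6PD (ENSG00000049239, chromosome 1) encodes hexose-6-phosphate dehydrogenase, which carries out the first steps of the oxidative branch inside the endoplasmic reticulum and supplies NADPH to that compartment. It was 1.67-fold lower in the libraries labelled knockout, at a log2 fold change of -0.74 with an SE of 0.09 in the authors' deposited table, with a 95% interval from -0.95 to -0.53 (edgeR adjusted p = 0.000122). The interval corresponds to a decrease between 1.45-fold and 1.93-fold. Of all genes in the table, 558 (4.66%) had a lower log2 fold change than H6PD. Its mean level of 3.18 log2 CPM was the lowest of the 7 enzymes, 71.5% of all genes lay above it, and its SE was the largest of the 7 and above that of 70.3% of genes. The nearest measured genes on either side went the other way in the authors' deposited table: ENO1, a glycolytic enzyme, stood at 0.36 (edgeR adjusted p = 0.00054) and SLC25A33, a mitochondrial pyrimidine nucleotide carrier, at 0.48 (edgeR adjusted p = 0.00123). Both are distant in the annotation, with gaps of 355525 bases to ENO1 and 268145 bases to SLC25A33.

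The cytosolic oxidative enzymes PGLS and PGD were not past the threshold. PGLS (ENSG00000130313, chromosome 19), the lactonase that opens the lactone formed in the first step, stood at -0.07 with an SE of 0.08 in the authors' deposited table, with a 95% interval from -0.24 to 0.10 (edgeR adjusted p = 0.45). PGD (ENSG00000142657, chromosome 1), the phosphogluconate dehydrogenase that makes NADPH while releasing carbon dioxide, stood at 0.04 with an SE of 0.05 in the authors' deposited table, with a 95% interval from -0.07 to 0.15 (edgeR adjusted p = 0.537). PGD was measured with high precision at 8.24 log2 CPM, a level that 2.89% of genes exceeded, and its interval holds no increase above 1.11-fold and no decrease beyond 1.05-fold. PGLS was much less abundant at 3.73 log2 CPM, and its interval allows a decrease of up to 1.18-fold. In the annotation, PGLS overlaps 2 noncoding genes on the opposite strand, and no source used here states whether the counting used strand, so reads of these genes cannot be told apart from its own.

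TALDO1 (ENSG00000177156, chromosome 11) encodes transaldolase, which moves a dihydroxyacetone unit between sugar phosphates and so links the pentose pool back to glycolysis. In the libraries labelled knockout it rose 1.36-fold, with a log2 fold change of 0.44 with an SE of 0.05 in the authors' deposited table, with a 95% interval from 0.34 to 0.54 (edgeR adjusted p = 3.59e-05). This interval corresponds to an increase between 1.27-fold and 1.46-fold. Of all genes, 925 (7.72%) had a higher log2 fold change. At 7.56 log2 CPM it belonged to the more abundant transcripts, with 5.97% of genes above it. Neither of its nearest measured neighbours passed in the authors' deposited table: EPS8L2, an actin-linked adaptor, stood at 0.38 (edgeR adjusted p = 0.0541) and PDDC1 at 0.04 (edgeR adjusted p = 0.611).

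The other 3 non-oxidative enzymes lay close to 0. TKT (ENSG00000163931, chromosome 3) is the transketolase, which uses thiamine diphosphate to move a glycolaldehyde unit between sugars and works in series with transaldolase. It stood at -0.07 with an SE of 0.06 in the authors' deposited table, with a 95% interval from -0.20 to 0.06 (edgeR adjusted p = 0.336). RPE (ENSG00000197713, chromosome 2), the ribulose-phosphate epimerase, stood at -0.05 with an SE of 0.05 in the authors' deposited table, with a 95% interval from -0.15 to 0.05 (edgeR adjusted p = 0.346). RPIA (ENSG00000153574, chromosome 2), the isomerase that forms ribose 5-phosphate for nucleotides, stood at -0.04 with an SE of 0.06 in the authors' deposited table, with a 95% interval from -0.16 to 0.09 (edgeR adjusted p = 0.627).

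These intervals hold no decrease beyond 1.15-fold for TKT, 1.11-fold for RPE and 1.12-fold for RPIA. An increase above 1.04-fold lies outside them for TKT, above 1.03-fold for RPE and above 1.07-fold for RPIA. The value of RPE is uncertain, because the annotation lists 7 genes named as its copies (RPEL1 and RPEP1 to RPEP6) whose reads may not align uniquely. RPE also overlaps KANSL1L on the opposite strand, which was 1.29-fold lower in the libraries labelled knockout in the authors' deposited table (edgeR adjusted p = 0.000993). A named copy is annotated for PGD and for RPIA as well, TKT has 2 related genes, TKTL1 and TKTL2, and no such gene of any of the 7 was in the table.

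Set in order of their log2 fold change, the enzymes ran from H6PD through PGLS, TKT, RPE, RPIA and PGD to TALDO1. The 95% intervals of the 5 in the middle all overlapped one another, so their order is not resolved. The interval of TALDO1 overlapped that of no other enzyme, and neither did that of H6PD. Among the 5, the smallest unadjusted p in the authors' deposited table was 0.254, for TKT.

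**Figure D2:**
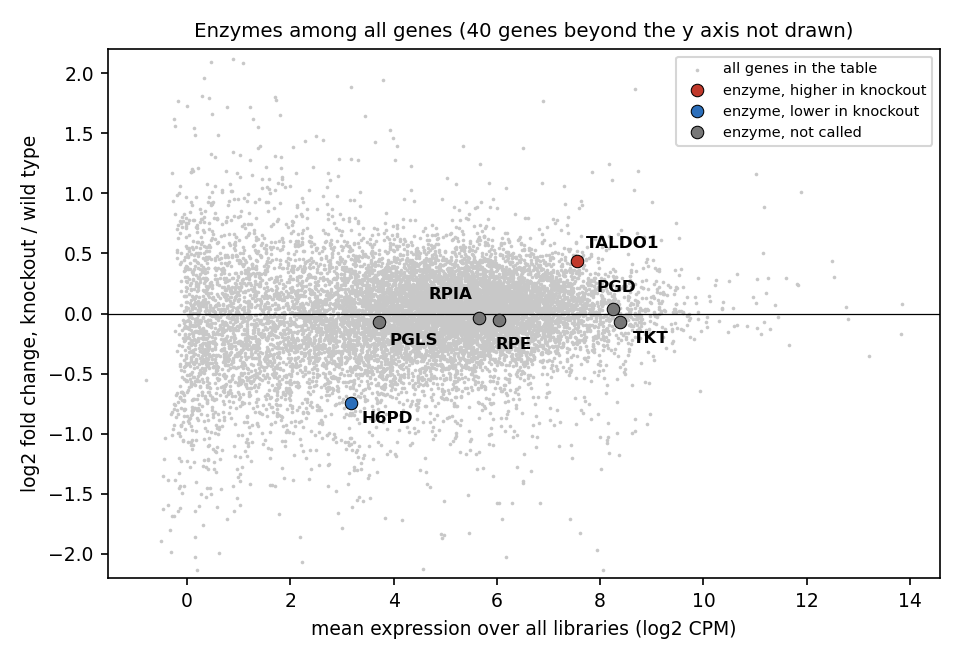
Mean expression over all libraries (x axis, log2 CPM) against log2 fold change (y axis) for all genes in grey, with the 7 enzymes marked; 40 genes beyond 2.2 in either direction are not drawn. TALDO1 lies above 0 at 0.44 and H6PD below 0 at -0.74, and PGLS, RPIA, RPE, PGD and TKT lie close to 0.

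Per kilobase of merged exon, the mean levels over all libraries ranked PGD first, at 6.67 log2 CPM per kb, followed by TALDO1 at 5.97 and TKT at 5.14. RPIA followed at 4.77 and RPE at 4.23 log2 CPM per kb. PGLS stood at 2.22, and H6PD was last at -0.04 log2 CPM per kb. With the length of the longest coding transcript, a choice made after the data had been seen, the order was identical, but TKT rose to 6.80 and PGLS to 3.69 log2 CPM per kb. No spread between libraries is available for these levels, so neighbours in this order cannot be called different. With either length, H6PD of the endoplasmic reticulum stood lowest and PGD, TALDO1 and TKT of the cytosol highest.

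**Figure D3:**
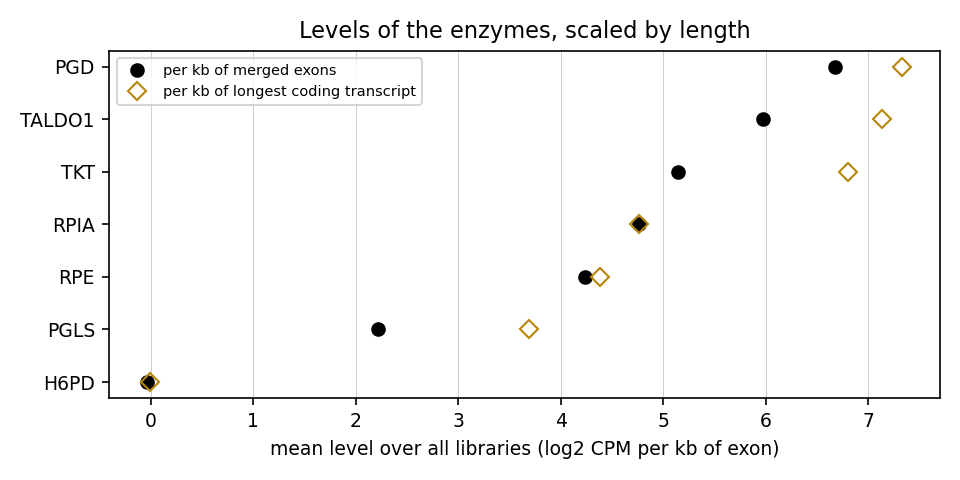
Mean level of each enzyme over all libraries (x axis, log2 CPM per kb), scaled by merged exon length (filled circles) or by the longest coding transcript (open diamonds). PGD, TALDO1 and TKT have the highest levels and H6PD the lowest with both lengths.

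Around these enzymes, 9 of 16 further genes of the pathway were measured, with a median log2 fold change of -0.08. Of these, 1 was higher, 2 were lower and 6 were not past the threshold. Over all genes, 24.9% were higher and 25.9% lower. PGM2, which interconverts pentose phosphates, was 1.11-fold higher, at 0.14 with an SE of 0.05 in the authors' deposited table (edgeR adjusted p = 0.0417). This call was lost when log2 fold changes were centred on the median of genes at or above 5 log2 CPM. That centring left 0 higher and 4 lower genes in this group, beside 2566 higher and 3532 lower over all genes. The lower genes were the kinases GLYCTK, for glycerate, and IDNK, for gluconate, at -0.50 and -0.54 in the authors' deposited table (edgeR adjusted p = 0.00463 and 0.0299), and both were scarce, at 2.01 and 0.74 log2 CPM. The ribose-phosphate pyrophosphokinases PRPS1 and PRPS2, which take up the ribose 5-phosphate that RPIA makes, stood at 0.07 and -0.08 in the authors' deposited table and did not pass (edgeR adjusted p = 0.225 and 0.194). DERA, an aldolase of deoxyribose phosphate, stood at -0.12 there (edgeR adjusted p = 0.0945).

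SLC19A2, an importer in the plasma membrane of thiamine, from which the cofactor of transketolase is made, was 1.19-fold lower, at -0.25 with an SE of 0.07 in the authors' deposited table (edgeR adjusted p = 0.017).

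**Figure D4:**
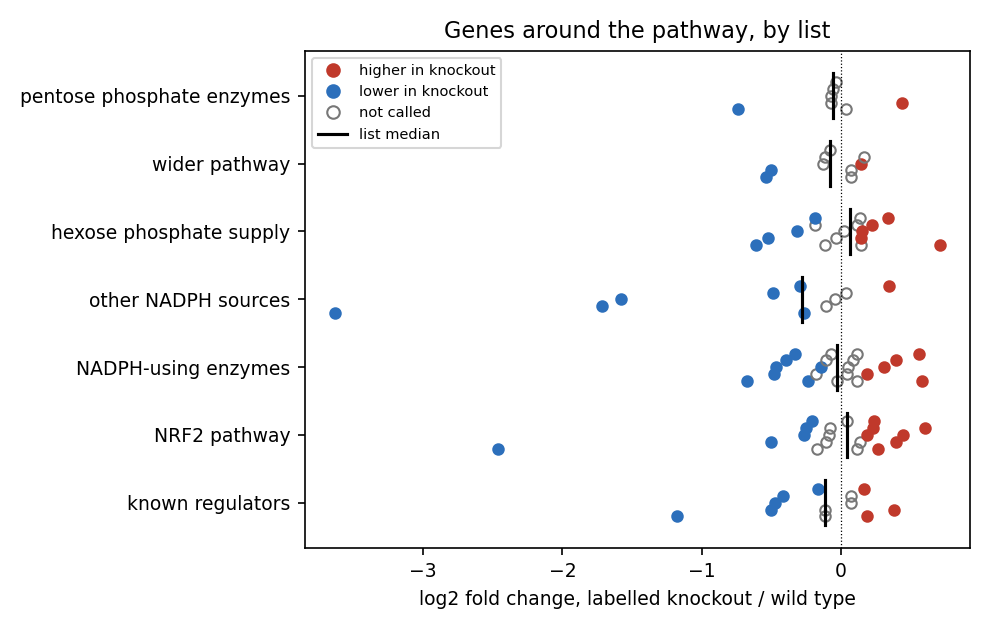
Log2 fold change (x axis) of the measured genes of 7 lists, with filled points for genes past the threshold, open points for the others and a black bar for the median of each list. The 7 enzymes have a median of -0.05, and the other NADPH sources a median of -0.28 with their lowest gene at -3.63.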

How the data were processed

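Total RNA of 3 ERF knockout and 2 wild-type HUDEP-2 samples was extracted with Trizol and made into libraries with an Illumina TruSeq kit, per the labels' protocols. Build hg19/GRCh37 and the tools edgeR 2.6.12, HTSeq, Cuffdiff, SAMtools and TopHat2 2.0.4 are listed per the submitters' processing notes, and which of them made the table deposited by the authors is not stated. No source used here states filters, normalization or strand setting. The columns deposited by the authors, per the file headers, are the log2 fold change of each gene, its log2 CPM averaged over libraries, the F score of a quasi-likelihood test, and its p-value before and after adjustment. Of its 11979 rows, 3 name no gene and hold 21.5% of the CPM; they were left out here, although the adjustment by the authors includes them. Recomputed adjusted p-values differed by at most 0.676%.

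The sign was set through HBG2. Each SE was computed as the size of the log2 fold change over the root of F, and the intervals took t quantiles at 10.3 degrees of freedom, a value solved from F and p. Both are approximate, since the edgeR fit by the authors shrinks fold changes. These steps were tested on simulated data built with the same formulas, which checks the arithmetic but cannot check this approximation. Exon lengths came from GENCODE 29. Motifs were searched in the 250 bases before RefSeq start sites, of which only the first listed was used for each enzyme. Calculations used Python 3.11.15 with scipy 1.17.1. The enzymes were all named; of other lists, called genes were named by size of change, up to 5 per direction, and uncalled ones (PRPS1, PRPS2, DERA, GSR), the copies and neighbouring genes were chosen after their values were seen. Results for 1 planned list and some listed genes are not reported here. Members and lists were chosen with earlier results of these data known. Alternatives were the threshold, the rows adjusted over, filters on low expression, centring and a minimum size of change.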

Additional observations from a re-analysis of the deposited data

How the results depend on the processing

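H6PD and TALDO1 kept their direction and stayed past the threshold in each of the planned settings that kept them in the table, and the other 5 enzymes stayed short of it with an unchanged sign. The log2 fold change of H6PD ran from -0.78 to -0.74 and that of TALDO1 from 0.41 to 0.44 across these settings. Only the centring settings alter a log2 fold change, so under all the others an unchanged sign was fixed in advance. A stricter threshold or a minimum size of change can only remove calls, so neither could have added any of the uncalled enzymes. With genes of at least 5 log2 CPM only, 1 of 5 enzymes was called and 0 of 1 in the oxidative branch, since H6PD and PGLS fall below that level. Under this setting 5 of 11 hexose supply genes and 7 of 14 NADPH-using enzymes were called, against 2985 of 5214 genes in all. At an adjusted p below 0.01, 1 of 9 genes of the wider pathway and 5 of 12 regulators were called, against 4299 of 11976 genes in all. With an interval required beyond 1.2-fold, 0 of 9 genes of the wider pathway, 3 of 16 of hexose supply and 4 of 10 other NADPH sources were called. So were 4 of 21 NADPH-using enzymes, 3 of 19 genes of the NRF2 pathway and 5 of 12 regulators, against 2157 of 11976 genes in all. Over all genes, 6092 were called in the table, 2985 of at least 5 log2 CPM (1689 higher, 1296 lower) and 2157 beyond 1.2-fold (882 higher, 1275 lower). Centred on the median of the genes at or above 5 log2 CPM, the split was 2566 higher and 3532 lower against 2987 and 3105 in the table. Scaled by the longest coding transcript, H6PD stood at -0.01 log2 CPM per kb. No paired analysis was possible because the table has no values per library, and for that reason no replicate could be left out.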

Other observations

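The counts below are for the libraries labelled knockout, under the sign set through HBG2, and stand beside 24.9% of all genes called higher, 25.9% called lower and 50.9% called in either direction. A list of other NADPH sources held enzymes that reduce NADP by other routes, together with the NAD kinases NADK and NADK2, which make NADP itself. Of its 10 measured genes, 6 fell, 1 rose and 3 did not pass, and the median log2 fold change was -0.28. ALDH1L2, MTHFD2 and IDH1, which act in mitochondrial folate metabolism and in isocitrate oxidation, stood at -3.63, -1.71 and -1.58 in the authors' deposited table. ALDH1L2 and MTHFD2 are also known targets of the stress factor ATF4, and ALDH1L2 was scarce at 0.55 log2 CPM. NADK2 (-0.49), NNT (-0.29) and IDH2 (-0.27) were lower as well, and NADK was higher at 0.35 in the authors' deposited table. Whether this list differs from the 7 pentose phosphate enzymes, of which 1 rose and 1 fell, was not tested.

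Among enzymes that spend NADPH, 5 of the 21 measured rose, 7 fell and 9 did not pass (median log2 fold change -0.03), shares near those of all genes. RRM2, a ribonucleotide reductase subunit, stood at 0.59 and CBR1, a carbonyl reductase, at 0.56, while PYCR1, of proline synthesis, stood at -0.67 and TXNRD3, a thioredoxin reductase, at -0.47 in the authors' deposited table. GSR, which uses NADPH to keep glutathione reduced, stood at 0.05 and did not pass in the authors' deposited table (edgeR adjusted p = 0.335).

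In hexose phosphate supply, 5 of the 16 measured genes rose, 4 fell and 7 did not pass (median log2 fold change 0.07), again near the shares of all genes. The glucose transporter SLC2A3 stood at 0.71 and the triose isomerase TPI1 at 0.34, against -0.61 for the hexokinase HK2 and -0.52 for the transporter SLC2A4 in the authors' deposited table. In the NRF2 pathway, which is known to drive pentose phosphate genes, 7 of the 19 measured genes rose, 5 fell and 7 did not pass (median log2 fold change 0.04). NFE2L2, which encodes NRF2, stood at -0.50 and the cystine transporter SLC7A11 at -2.46 in the authors' deposited table. Whether the change of SLC7A11 follows from that of NFE2L2 was not tested. MAFF (0.61), MAFK (0.45) and the NRF2 target NQO1 (0.39) were higher there, and all were scarce, at 1.99, 2.09 and 2.07 log2 CPM. Among 12 measured regulators known to act on pentose phosphate genes, 3 rose and 5 fell (median log2 fold change -0.11): SREBF1 stood at -1.18 and MTOR at 0.38 in the authors' deposited table.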
